A study of Mus musculus with 32 samples.

Results

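The 10 genes described here are ones that glucocorticoids are known to act on, or that carry the hormone's signal, were followed through RNA-seq, XR-seq and Damage-seq of mouse organs after cisplatin. The genes were taken from a list given by name: Fkbp5, Tsc22d3, Sgk1, Ddit4, Klf9, Errfi1, Zbtb16, Tat, Sik1 and Nr3c1. Symbols were mapped to Ensembl identifiers with GENCODE on the mm10 genome (GRCm38), and all 10 of 10 were found among the 25059 genes of the RNA-seq files.

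Female C57BL/6J mice aged 6 to 7 months, kept in 12 h of light and 12 h of dark, received 10 mg per kg cisplatin by intraperitoneal injection, and the controls received saline. The injection was at ZT1 (1 h after lights on) and the organs were taken at ZT5, which is 4 h later, whereas a time tag in the sample labels gives 2 h. Kidney, liver, lung and spleen were each represented by 2 control and 2 cisplatin RNA-seq libraries, and by 2 cisplatin libraries each of XR-seq and Damage-seq, with no control for the last 2 assays. RNA-seq counts all transcripts of a gene, XR-seq counts the short oligonucleotides cut out by nucleotide excision repair, and Damage-seq counts cisplatin adducts still in the DNA. Adducts form mainly at GG dinucleotides, so that reads on the transcribed strand (TS) and non-transcribed strand (NTS) were divided by the GG count of that strand. A note with the data says that control and cisplatin had been exchanged among the lung and spleen RNA-seq samples and were corrected, and the directions given for those organs rest on the corrected labels. The replicates are described as biological, but the lung control pair and the spleen control pair differed hardly more than sampling noise would give, and each pair was counted as 1 sample.

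Glucocorticoids are adrenal steroid hormones that rise in stress and in a daily rhythm. They enter cells and bind the glucocorticoid receptor, the product of Nr3c1, which leaves its Hsp90 chaperone complex, moves to the nucleus and binds DNA at the glucocorticoid response element (GRE), a pair of inverted repeats 3 bases apart. Genes near such sites are switched on within hours in many organs, and several of them limit the response in turn: Fkbp5 encodes a co-chaperone that lowers hormone binding, and Tsc22d3 encodes GILZ, a protein that restrains inflammatory signalling.

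The 10 genes lie on 8 chromosomes and differ widely in size. On GRCm38, Fkbp5 (ENSMUSG00000024222) occupies chr17:28399094-28517527 on the minus strand, Tsc22d3 (ENSMUSG00000031431) chrX:140539528-140600659 on the minus strand, and Sgk1 (ENSMUSG00000019970) chr10:21882184-21999903 on the plus strand. Ddit4 (ENSMUSG00000020108) is the shortest, 2.17 kb at chr10:59949669-59951834 on the minus strand. Klf9 (ENSMUSG00000033863) lies at chr19:23141226-23168134 and Errfi1 (ENSMUSG00000028967) at chr4:150853919-150868892, both on the plus strand. Zbtb16 (ENSMUSG00000066687) is the longest, 182 kb at chr9:48654297-48836222 on the minus strand. Tat (ENSMUSG00000001670) lies at chr8:109990437-109999803 on the plus strand, Sik1 (ENSMUSG00000024042) at chr17:31844250-31855804 and Nr3c1 (ENSMUSG00000024431) at chr18:39410545-39519421, both on the minus strand. Errfi1 overlaps 1 gene on the opposite strand, 1700045H11Rik, and whether its RNA-seq counting used strand was not given in the sources used here, so reads of the 2 genes could not be told apart where they overlap. In XR-seq and Damage-seq the NTS of Errfi1 is there the TS of the other gene. The other 9 overlapped no gene of the table.

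Depth differed between assays. Reads on genes per library ran from 15619474 to 162270280 in RNA-seq, from 10658675 to 59779770 in XR-seq and from 1571167 to 6441367 in Damage-seq. Intervals below cover counting error only, and where a count is 0 the limit given is 3 counts of the total, which differs from the Wilson bound. In the spleen, the summed level of 4 pancreatic acinar markers was 872 and 601 CPM in the cisplatin libraries against 0.312 and 0.302 in the controls, and at most 2.34 in any other organ. In the lung, 4 B cell markers summed to 58.2 and 45.8 CPM against 185 and 198, and 4 T cell markers to 20.3 and 18.5 against 76.2 and 76.8. In the same lung libraries 3 adipocyte markers summed to 90.7 and 37.4 CPM against 386 and 404, and 4 erythroid markers to 726 and 545 against 1326 and 1295, while 5 alveolar and club cell markers were at 52433 and 60539 against 50207 and 52677. The part of these markers in the results below was not tested. Markers of the labelled organ were present in every library (for example 5 hepatocyte markers at 121455 to 254714 CPM in the liver and at most 439 CPM elsewhere). In whole organs, fewer cells of a type and less RNA per cell cannot be told apart.

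The letters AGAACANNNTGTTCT, the full GRE palindrome that reads the same on both strands, were searched in the RefSeq promoter windows (250 bases before to 50 after a transcription start, GRCm38) and in each gene with 20 kb on either side, Nr3c1 excepted. Of 32851 promoter windows in the genome 3, or 0.00913%, held it, and 1 of the 3 was a window of Sgk1, the kinase named for its induction by serum and glucocorticoids. The shorter form GNACANNNTGTNC, which lies inside the full one, was in 0.475% of windows and, among the 15 windows of the 7 genes with an entry, again only in that of Sgk1. RefSeq windows were found for Fkbp5, Tsc22d3, Sgk1, Ddit4, Klf9, Errfi1 and Tat. The 250 bases before this Sgk1 start (chr10:21993640-21993889, plus strand) are shown because the GRE begins 189 bases before the start, with the motif in capitals.
Sgk1 promoter: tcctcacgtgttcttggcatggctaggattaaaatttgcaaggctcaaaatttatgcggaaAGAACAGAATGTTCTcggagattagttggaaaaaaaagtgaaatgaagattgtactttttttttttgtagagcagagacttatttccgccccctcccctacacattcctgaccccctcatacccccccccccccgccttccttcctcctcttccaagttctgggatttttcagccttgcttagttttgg

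Over the gene and 20 kb on either side, 1.92% of 25041 genes held at least 1 full GRE, and 2 of the 9 members scanned did, Sgk1 at the site above and Fkbp5 at 2 sites inside its gene body. Both Fkbp5 sites lie outside annotated exons, at chr17:28420321-28420335 and chr17:28442419-28442433. They are shown with 30 bases on either side in the direction of the gene, the motif in capitals, because they are the sole full palindromes at Fkbp5 in the span searched.
Fkbp5 site 1: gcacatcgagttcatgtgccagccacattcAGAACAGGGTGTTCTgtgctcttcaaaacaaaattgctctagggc
Fkbp5 site 2: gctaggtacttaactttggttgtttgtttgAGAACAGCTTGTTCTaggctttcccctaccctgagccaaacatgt
The cyclic AMP response element TGACGTCA, which reads the same on both strands and overlaps neither GRE form, was in 1.79% of promoter windows and in 1 member window, that of Errfi1, starting 51 bases before the transcription start. These matches are letters in a window; receptor binding was not measured.

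The first question was whether these genes had higher RNA levels after cisplatin, and in which organs. Averaged over the 4 organs, 6 of the 10 genes rose: Ddit4, Tsc22d3, Errfi1, Sgk1, Klf9 and Sik1, by 1.73-fold to 3.04-fold. No member fell. Among all 19100 genes tested the same fit called 0.901% higher and 3.31% lower, so genes called lower outnumbered genes called higher in the table as a whole. The test was edgeR's quasi-likelihood fit against a log2 fold change of 0.4 with Benjamini-Hochberg adjustment over all genes, and a call is an adjusted p under 0.05. The fit had no term for the mouse, and the labels do not say which libraries share a mouse. Where organs came from the same mice, the adjusted p of the mean does not measure the spread between animals. The median log2 fold change was 0.90 over the 10 genes and 0.02 over all genes tested. The 4 genes Tsc22d3, Sgk1, Ddit4 and Klf9, had both cisplatin libraries above both controls in each of the 4 organs, as did 3.13% of all genes, and no member had both below in each organ, as did 5.53% of all genes. The count of 6 fell to 2 without the kidney, to 2 without the lung and to 3 without the spleen, with Ddit4 and Tsc22d3 called each time.

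**Figure D1:**
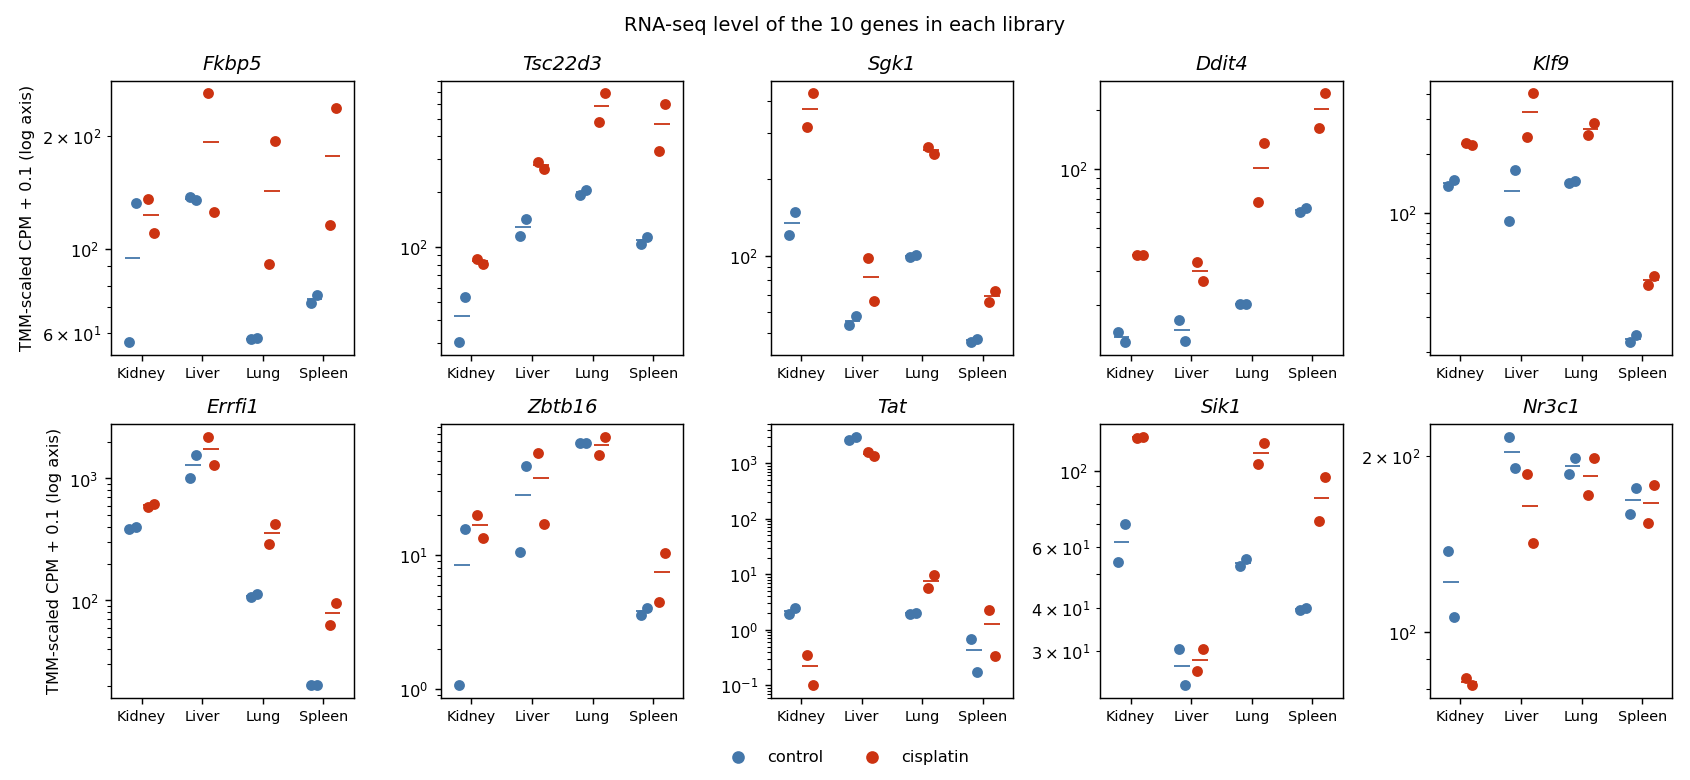
RNA-seq level of each gene in each of the 16 libraries, in CPM (TMM-scaled) plus 0.1 on a log axis that differs between panels. Points are libraries, blue for control and red for cisplatin, and short lines are means of 2. Tsc22d3, Sgk1, Ddit4 and Klf9 have every red point above the blue points of the same organ, and Tat is near 0 outside the liver.

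Tsc22d3, which encodes the anti-inflammatory leucine zipper protein GILZ, was higher in every organ. In the kidney the controls had 30.1 and 53.5 CPM (read counts scaled to library size with TMM) and the cisplatin libraries 86.3 and 80.2, and in the liver 115 and 141 against 289 and 266. In the lung the controls had 192 and 205 CPM and the cisplatin libraries 481 and 685, and in the spleen 104 and 113 against 334 and 602. The groups did not overlap in any organ. In the mean over organs the log2 fold change was 1.43 ± 0.21 (SE, edgeR adjusted p = 0.00745), and by organ it passed in the lung alone at 1.51 ± 0.24 (edgeR adjusted p = 0.0471).

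Ddit4 encodes REDD1, an inhibitor of the growth kinase complex mTORC1. Its controls were at 14.6 and 12.9 CPM in the kidney, 16.8 and 13.1 in the liver, 20.2 and 20.2 in the lung, and 60.0 and 62.9 in the spleen. The cisplatin libraries were at 36.0 and 36.3, 33.2 and 26.6, 67.2 and 136, and 162 and 243 CPM in the same order, all above the controls of the organ. Ddit4 had the largest mean change of the 10, 1.60 ± 0.19 on the log2 scale (edgeR adjusted p = 0.00163), and it passed in the kidney at 1.43 ± 0.19 (edgeR adjusted p = 0.0212). Its lung value of 2.29 ± 0.41 missed the threshold, in a fit that counted the lung control pair as 1 sample.

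Sgk1, a kinase that raises sodium uptake in the kidney tubule among other roles, was highest in kidney and lung after cisplatin. Kidney levels were 121 and 148 CPM in controls and 318 and 429.7 after cisplatin, and lung levels were 98.6 and 100.4 against 266 and 250.4. Liver levels were 53.3 and 58.0 CPM against 98.0 and 66.5, and spleen levels 45.8 and 47.2 against 66.0 and 72.6. The groups stood clear of each other in each organ, with the smaller gaps in liver and spleen. The change passed in the kidney (1.5 ± 0.21, edgeR adjusted p = 0.0241), in the lung (1.35 ± 0.18, edgeR adjusted p = 0.0322) and in the mean (0.99 ± 0.15, edgeR adjusted p = 0.0128).

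Errfi1 encodes MIG6, a feedback inhibitor of the EGF receptor. Lung controls had 106 and 113 CPM and cisplatin libraries 292 and 427, a change that passed (1.67 ± 0.25, edgeR adjusted p = 0.0387). Spleen controls had 20.3 and 20.02 CPM and cisplatin libraries 62.3 and 94.9, and kidney libraries had 384 and 401 against 588 and 621. Liver levels overlapped, with 1013 and 1548 CPM in controls and 2203 and 1288 after cisplatin. The mean change was 1.18 ± 0.23 (edgeR adjusted p = 0.0353), which missed the threshold without the kidney, the lung or the spleen (edgeR adjusted p from 0.116 to 0.176).

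Klf9, a Krüppel-like transcription factor that takes part in clock and hormone responses, had 137 and 146 CPM in kidney controls and 226 and 221 after cisplatin, and in the liver 91.9 and 166 against 243 and 401. Lung controls had 141 and 146 CPM against 248 and 284, and spleen controls 22.4 and 24.3 against 43.8 and 48.2. All cisplatin libraries were above their controls, no single organ passed, and the mean did (0.95 ± 0.18, edgeR adjusted p = 0.0428). With RLE size factors the mean of Klf9 missed (edgeR adjusted p = 0.055).

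Sik1, a salt-inducible kinase that restrains CREB coactivators, was higher in 3 organs. Its kidney levels were 54.1 and 69.7 CPM against 124 and 125, its lung levels 52.7 and 55.2 against 104 and 120.3, and its spleen levels 39.3 and 39.8 against 71.1 and 95.7. The liver libraries overlapped at 30.2 and 23.7 against 26.1 and 30.2 CPM. The mean passed at 0.79 ± 0.13 (edgeR adjusted p = 0.037), and the kidney value of 1.04 ± 0.18 missed (edgeR adjusted p = 0.0562).

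Fkbp5, the co-chaperone gene most often read as a marker of receptor activity, did not pass in any organ or in the mean (0.85 ± 0.29, edgeR adjusted p = 0.319). Lung controls had 57.5 and 57.8 CPM against 91.0 and 194 after cisplatin, and spleen controls 71.7 and 75.2 against 116 and 237. These groups were separate, but the 2 cisplatin libraries differed from each other by more than the lower one differed from its controls. In the liver the libraries overlapped at 137 and 135 CPM against 259 and 126. In the kidney the controls themselves were apart, at 56.5 and 133 CPM, with cisplatin libraries at 136 and 110.4.

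The kidney control with the high Fkbp5 level, replicate 2, was also the higher of its pair for Tsc22d3 and for Zbtb16 (15.6 against 0.969 CPM). It had 161 CPM of 3 adipocyte markers against 31.5 in replicate 1, while the kidney cisplatin libraries had 22.03 and 111, and the part of this in the result was not tested. Without that control library, 7 members passed in the kidney, 6 higher and Tat lower, and so did 1400 of 15105 genes in place of 782 of 15471. The 6 included Fkbp5 at 1.15 ± 0.24 (edgeR adjusted p = 0.0132) and Tsc22d3 at 1.49 ± 0.24 (edgeR adjusted p = 0.00148). Without the other kidney control Fkbp5 was at -0.08 ± 0.22.

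Zbtb16 encodes PLZF, a zinc finger repressor. Its liver controls had 10.4 and 46.0 CPM and cisplatin libraries 57.9 and 16.9, so that the groups overlapped. Lung levels were 69.1 and 69.0 CPM against 56.1 and 76.5, and spleen levels 3.49 and 3.92 against 4.40 and 10.3. No change passed (mean 0.56 ± 0.55, edgeR adjusted p = 1).

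Tat, tyrosine aminotransferase, is the classical hormone-induced enzyme of the liver. Liver controls had 2607 and 2999 CPM and the cisplatin libraries 1566 and 1343, both below both controls, but the log2 fold change of -0.89 ± 0.41 did not pass (edgeR adjusted p = 0.713). Elsewhere it was near 0: 37 and 126 reads in kidney controls against 4 and 0 after cisplatin, and 1.84 and 1.92 CPM against 5.54 and 9.60 in the lung. The kidney value missed the threshold with edgeR (adjusted p = 0.0883) and passed with DESeq2 (log2 fold change -4.50, adjusted p = 0.00694). The lung value went the other way, at 1.96 ± 0.41, and likewise missed with edgeR (adjusted p = 0.0861) and passed with DESeq2 (adjusted p = 0.00596).

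Nr3c1, the receptor itself, had 137 and 106 CPM in kidney controls and 83.4 and 81.0 after cisplatin, and in the liver 215 and 190.1 against 186 and 142. Lung levels were 186 and 198 CPM against 171 and 198, and spleen levels 159 and 176 against 153 and 178. The groups were apart in kidney and liver and overlapped in lung and spleen, and no change passed (mean -0.25 ± 0.13, edgeR adjusted p = 1).

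**Figure D2:**
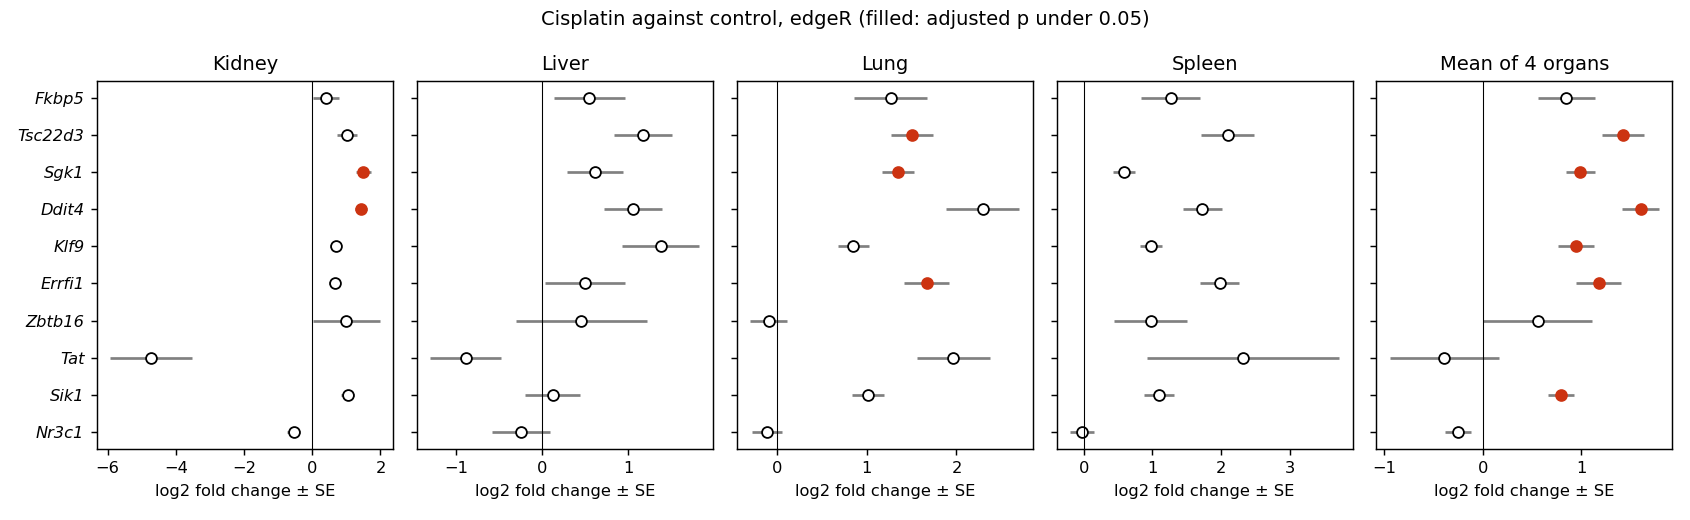
Log2 fold change of cisplatin over control for the 10 genes in each organ and in the mean over organs, with the SE as bars. Filled points have an edgeR adjusted p under 0.05, and each panel has its own horizontal axis. Filled points number 2 in the kidney, 3 in the lung and 6 in the mean.

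By organ, the kidney called Sgk1 and Ddit4 higher, 2 of 10 members, where 2.40% of 15471 genes were called higher and 2.65% lower. The lung called Tsc22d3, Sgk1 and Errfi1, 3 of 10, where 0.132% of 18210 genes were called higher and 1.96% lower. The liver called 0 of 10 members and 0% of 13868 genes in either direction with edgeR. At an unadjusted p under 0.05 the liver had 1287 genes and 3 members, Tsc22d3, Ddit4 and Klf9, and DESeq2 called 188 genes and 0 members. The spleen called 0 of 10 members with edgeR, where 0.164% of 17686 genes were called higher and 0.0170% lower. At an unadjusted p under 0.05 the spleen had 768 genes and 6 members, and DESeq2 called 85 genes and 3 members, Tsc22d3, Ddit4 and Errfi1. The 4 organ fits and the mean use the same libraries.

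Counted without a test, both cisplatin libraries were above both controls for 6 of 10 members in the kidney, 4 in the liver, 8 in the lung and 8 in the spleen. The shares of all 19100 genes were 24.1%, 15.4%, 34.8% and 27.7%. In the liver these were the 4 genes that were separate in every organ. Leaving out a cisplatin library left 0 or 1 members called in the kidney (Tat, lower, without replicate 1). In the lung this could be done only in the fit with 8 groups, which called 0 members with all libraries in and 0 without either, so the effect of the library cannot be told apart from that of the fit. Leaving out lung control replicate 2 left 1, Sgk1.

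The next question was whether the response differed between organs. An interaction test over the 4 organs in edgeR called 0 of 10 members and 40 of 19100 genes, or 0.209%. At an unadjusted p under 0.05 it had 1608 genes and 2 members, Tat (edgeR adjusted p = 0.316) and Sik1 (edgeR adjusted p = 0.565). A difference between organs was thus not detected for any of the 10, which does not show that they responded alike.

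Per kilobase of exon (RPKM), the order of the 10 genes differed between organs. In untreated liver Tat was highest at 1084 and 1247 RPKM, followed by Errfi1 at 283 and 432. In untreated kidney Errfi1 led at 107 and 112 RPKM, followed by Klf9 at 28.5 and 30.4 and Sgk1 at 24.6 and 30.2, which overlapped. In untreated lung Tsc22d3 was highest at 44.1 and 47.1 RPKM, and in untreated spleen Ddit4 was highest at 34.2 and 35.8. After cisplatin Tsc22d3 (111 and 158 RPKM) and Errfi1 (81.6 and 119) overlapped in the lung, and in the spleen Ddit4 (92.3 and 138) and Tsc22d3 (77.0 and 139) overlapped.

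The 5 other genes whose log2 CPM, centred within each organ, followed Fkbp5 most closely over 14 samples were Galnt15 (Pearson r = 0.908), Acer2 (0.894), Serpina3f (0.886), Cyp1a1 (0.852) and Igdcc3 (0.852). Acer2 encodes an alkaline ceramidase and Cyp1a1 a xenobiotic-metabolizing cytochrome. The samples share organs and libraries, so these values describe likeness only. Igdcc3 was at most 0.707 CPM in any library. Cyp1a1 was at 212 CPM in lung cisplatin replicate 2 against 13.1 in lung cisplatin replicate 1. None of the 5 passed in the mean over organs.

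Related gene lists gave a wider view, but they were chosen with earlier results of these data known. Of all genes tested in the kidney 2.40% were called higher and 2.65% lower, and the shares for the other fits are given above. Of 22 other genes known to be induced by glucocorticoids, 8 rose in the mean over organs and none fell, with a list median log2 fold change of 0.82 against 0.02 for all genes. The largest were Per1, a clock repressor gene (1.82 ± 0.25, edgeR adjusted p = 0.0034), and Dusp1, a MAP kinase phosphatase gene (1.59 ± 0.16, edgeR adjusted p = 0.00068). The smallest that passed were Zfp36, an mRNA decay factor gene (0.89 ± 0.14, edgeR adjusted p = 0.021), and Pdk4 (0.91 ± 0.17, edgeR adjusted p = 0.039). In the kidney 7 of the 22 rose, with Zfp36 at 2.59 and Cebpb at 2.36, and 1 fell, Igfbp1 at -2.09. In the lung 4 of 22 rose, from Dusp1 at 1.66 to Cebpd at 1.40, and in liver and spleen 0 passed.

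Genes that glucocorticoids repress were read in the same fits. Of 14 inflammatory genes of this kind, 0 fell in any organ or in the mean (edgeR), and the list median was 0.24 in the mean over organs. In the kidney 2 rose, the chemokine gene Cxcl1 (3.73 ± 0.58, edgeR adjusted p = 0.025) and the adhesion gene Icam1 (1.26 ± 0.18, edgeR adjusted p = 0.029). Il6 passed in the mean at 3.35 ± 0.66 (edgeR adjusted p = 0.028) but was too low to be tested in kidney or liver. The list median was 1.24 in the kidney (12 of 14 tested, 11 above 0) and 0.59 in the liver (8 tested, 7 above 0). It was -0.34 in the lung (14 tested, 3 above 0) and 0.01 in the spleen (14 tested, 8 above 0).

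Among 12 genes of receptor function, 3 fell in the mean and none rose. They were Nr3c2, the mineralocorticoid receptor (-2.14 ± 0.25, edgeR adjusted p = 0.0013), and the coactivators Ncoa2 (-1.33 ± 0.20, edgeR adjusted p = 0.00899) and Ncoa1 (-1.15 ± 0.14, edgeR adjusted p = 0.00358). In the kidney Nr3c2, Ncoa2 and Ncoa1 fell and Hsp90aa1, the chaperone of the receptor, rose (1.71 ± 0.16, edgeR adjusted p = 0.0098). None of the 12 passed in liver, lung or spleen.

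Some of the 10 genes also answer to signals other than the hormone, and 2 such lists were read beside them. Of 10 p53 target genes, 4 rose in the mean over organs with a median of 0.87, led by Cdkn1a, the cell cycle inhibitor p21 (2.68 ± 0.42, edgeR adjusted p = 0.0059), and 5 rose in the kidney. Cdkn1a was higher in the libraries labelled cisplatin in every organ, in the lung at 384 and 474 CPM against 112 and 112, and in the spleen at 31.02 and 27.0 against 9.99 and 10.7. Of 8 CREB target genes, 3 rose in the mean (Fos 1.96, Nr4a1 1.11 and Nr4a2 1.07) and 1 fell (Pde4d, -2.08), and 5 rose in the kidney. The medians of the 10 genes, the other glucocorticoid-induced genes, the p53 list and the CREB list (0.81) were all above that of all genes in the mean over organs, and the part of each signal in the 10 genes was not tested.

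**Figure D3:**
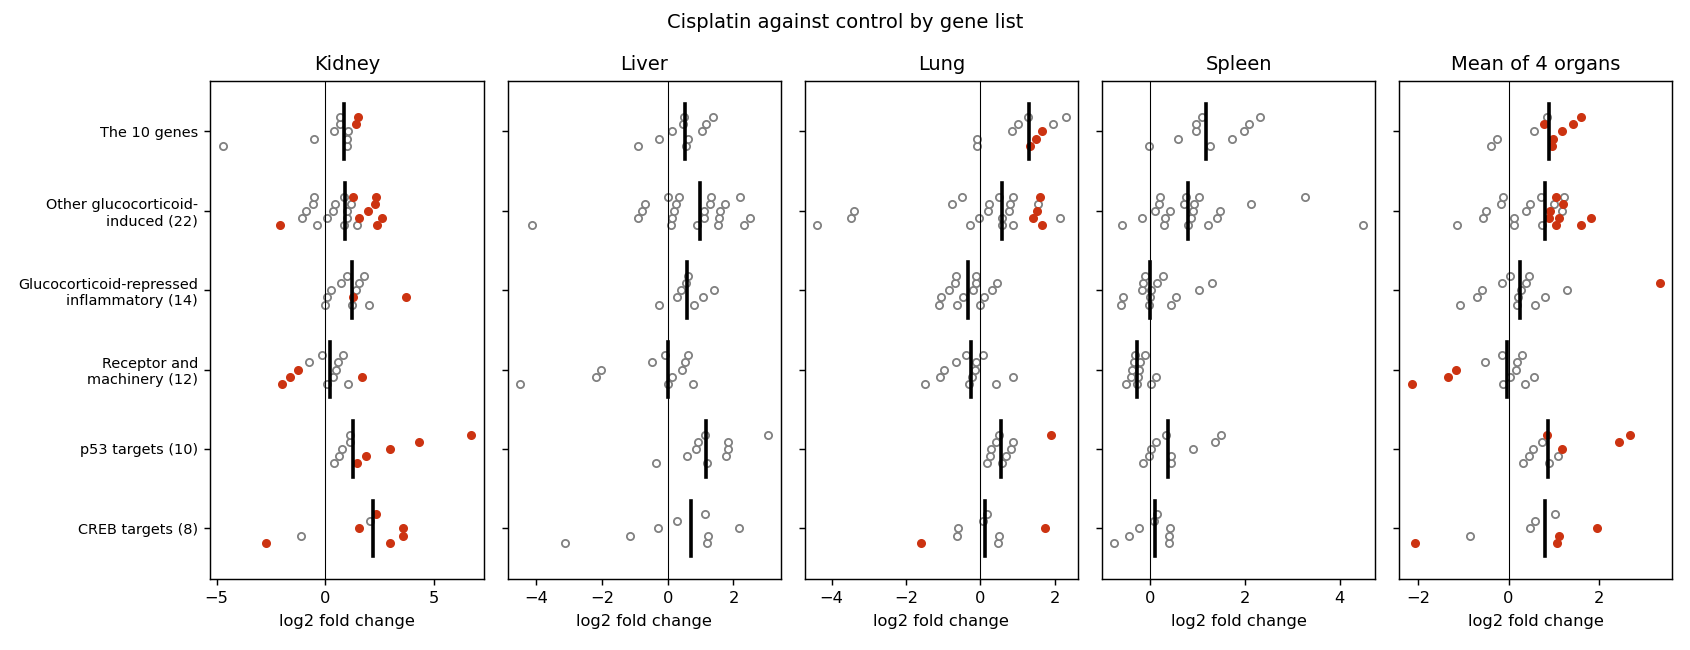
Log2 fold change of each listed gene in each organ and in the mean over organs, by list, with the number of listed genes in brackets. Points are genes, filled where the edgeR adjusted p is under 0.05, black bars are list medians, and each panel has its own axis. In the mean over organs 6 of the 10 genes and 8 of the 22 other glucocorticoid-induced genes are filled above 0, and 3 of the 12 receptor and machinery genes are filled below 0.

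XR-seq asked where these genes were being repaired. Its values are scaled to the reads of each library. A higher value in an organ is thus a larger share of its reads, not a larger amount of repair. Per GG, 9 of the 10 genes had more reads on the TS than on the NTS in all 8 libraries, as did 55.8% of the 21610 genes with at least 10 GG on each strand and 20 reads in XR-seq. The mean ratio ran from 2.39-fold in Sgk1 to 21.1-fold in Sik1. Each of the 9 passed an exact two-sided sign-flip test over 8 libraries (p = 0.00781, the smallest this design allows, adjusted p = 0.0112 over 20 tests), and Tat did not (p = 0.836). Here and below this test flips each library freely, although libraries of the same organ, and perhaps of the same mouse, are not independent. Its p can therefore overstate the evidence. The median gene had a ratio between 3.35 and 7.91 in the 8 libraries, so a TS excess was common in the table.

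Set against the median gene of each library, the members divided. Sik1 (2.02 on the log2 scale above the median), Ddit4 (1.72), Zbtb16 (1.15), Tsc22d3 (0.97), Fkbp5 (0.91) and Nr3c1 (0.70) had a higher strand ratio than the median gene and passed (exact sign-flip test, adjusted p from 0.0174 to 0.0481). Klf9 (0.30) and Errfi1 (0.51) did not pass. Sgk1 lay below the median gene, at -1.12 (exact sign-flip test, adjusted p = 0.0174). The annotated span of Sgk1 is 118 kb, while the start whose promoter holds the GRE is at 21993890 and the gene ends at 21999903, and the counts cover the whole span.

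**Figure D4:**
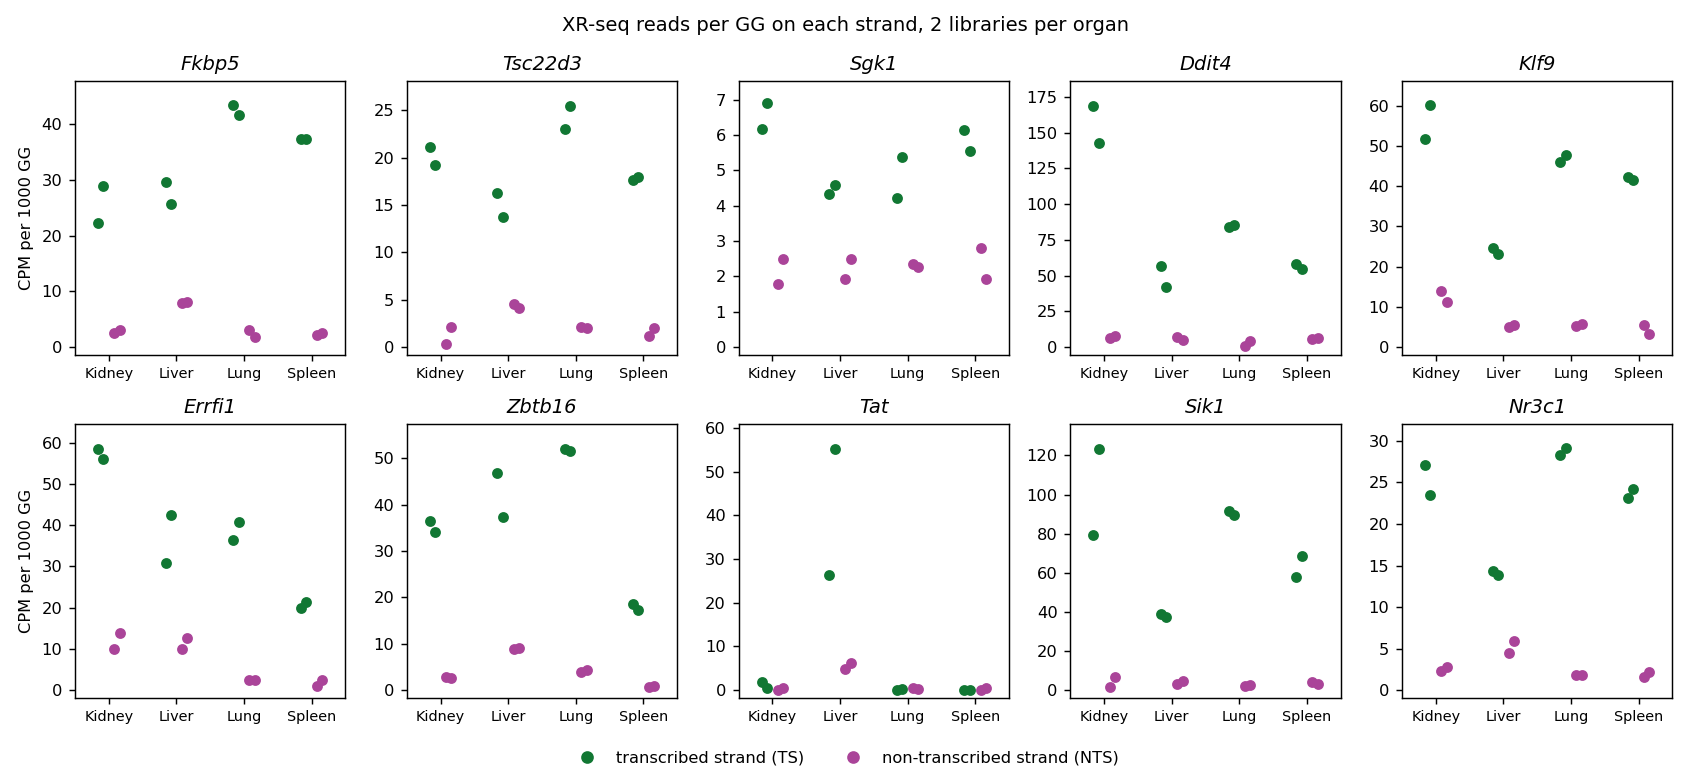
XR-seq CPM (over reads on genes) per 1000 GG for each gene, on the TS (green) and the NTS (purple), with 2 libraries per organ as points and a vertical axis that differs between panels. The TS lies above the NTS in every library for 9 genes. Tat has its reads in the liver, and Ddit4 reaches 169 in the kidney.

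Relative repair on the TS differed between organs for 8 of the 10 genes, as for 58.3% of 19731 genes. The test was edgeR's quasi-likelihood F test over 4 organs and 8 libraries, scaled with TMM, at an adjusted p under 0.05. The CPM values below are scaled to reads on genes instead, and the 2 scalings can order organs differently. The 2 exceptions were Tsc22d3 (edgeR adjusted p = 0.0625) and Sgk1 (edgeR adjusted p = 0.274).

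Tat had the clearest organ pattern. It had 26.5 and 55.2 TS CPM per 1000 GG in the liver, from 752 and 1252 reads, and 0 to 18 reads in the other 6 libraries. The liver exceeded the mean of the others by 9.19 ± 0.67 on the log2 scale (F test over organs, edgeR adjusted p = 2.9e-06). With 0 TS reads in the spleen, neither the size of this difference nor its SE is well determined. In the liver 83.5% (95% Wilson interval 80.9% to 85.7%) and 88.9% (87.1% to 90.4%) of its reads were on the TS. In 2 other libraries the TS was at 0 with reads on the NTS, 19 in lung replicate 1, which allows a TS share of up to 15.8%, and 10 in spleen replicate 2, which allows up to 30%.

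Ddit4 had the highest TS repair per GG of the 10 in the kidney, with 169 and 143 CPM per 1000 GG, above 99.9% and 99.8% of genes. Its other values were 56.7 and 41.7 in the liver, 84.1 and 85.6 in the lung, and 58.4 and 54.3 in the spleen. The kidney exceeded the other organs by 1.15 ± 0.21 (log2, F test over organs, edgeR adjusted p = 0.00214). Sik1 was also high in the kidney, at 79.3 and 123, and in the lung at 91.9 and 89.4, and low in the liver at 39.2 and 37.4 CPM per 1000 GG. Its liver value differed from the mean of the other organs by -0.81 ± 0.15 (log2, F test over organs, edgeR adjusted p = 0.000989).

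Zbtb16 had its highest TS values in the lung (52.0 and 51.6 CPM per 1000 GG) and its lowest in the spleen (18.5 and 17.3). Liver values were 46.9 and 37.4, and kidney values 36.6 and 34.1. On this scale the liver and kidney values overlapped neither each other nor the lung. In the edgeR fit with TMM, liver and lung were level, each 0.71 ± 0.09 (log2) above the mean of the other organs. Zbtb16 RNA after cisplatin had the same lowest organ, at 4.40 and 10.3 CPM in the spleen, and its highest value, 76.5 CPM, was in the lung. Errfi1 had its highest TS values in the kidney (58.5 and 56.2) and its lowest in the spleen (19.9 and 21.4), whereas its RNA was highest in the liver.

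Klf9 had its lowest TS values in the liver (24.8 and 23.1 CPM per 1000 GG against 41.5 to 60.2 elsewhere), as did Nr3c1 (14.4 and 13.9 against 23.1 to 29.1). Klf9 RNA in the liver after cisplatin, at 243 and 401 CPM, was not the lowest of the 4 organs. Fkbp5 had its lowest values in kidney and liver (22.3 to 29.6) and its highest in the lung (43.4 and 41.6). In the edgeR fit with TMM it lay below the mean of the other organs in the kidney (-0.65 ± 0.11, log2), and the liver was level (-0.01 ± 0.10). Tsc22d3 had 13.7 to 25.5 and Sgk1 4.21 to 6.91 over all 8 libraries.

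On the NTS 5 of 10 genes differed between organs (Fkbp5, Klf9, Errfi1, Zbtb16 and Nr3c1), as did 26.3% of 19408 genes. Fkbp5 had 7.91 and 8.09 NTS CPM per 1000 GG in the liver and 1.87 to 3.06 elsewhere (F test over organs, edgeR adjusted p = 0.00228). Zbtb16 had 8.89 and 9.13 in the liver and 0.711 to 4.31 elsewhere (edgeR adjusted p = 1.33e-05), and Nr3c1 4.42 and 5.88 in the liver and 1.61 to 2.79 elsewhere (edgeR adjusted p = 0.0129). Errfi1 had 9.87 to 13.8 in kidney and liver and 1.13 to 2.54 in lung and spleen, but part of its NTS is the TS of 1700045H11Rik, so its strands cannot be told apart from those of that gene where they overlap. The library median of the TS to NTS ratio was also lowest in the liver, at 3.86 and 3.35, over all genes. Fewer members passed with either liver replicate left out and more with kidney replicate 2 left out, and the count over all genes moved the same way.

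Damage-seq asked how the remaining adducts were spread over genes and strands. These values too are scaled to the reads of each library, so they do not give the amount of damage in an organ. The 5 genes Ddit4, Klf9, Errfi1, Sik1 and Nr3c1, had fewer reads per GG on the TS than on the NTS in all 8 libraries, as did 23.3% of 22939 genes. Fkbp5 and Zbtb16 were lower on the TS in 7 of 8 libraries. All 7 passed the exact two-sided sign-flip test (adjusted p = 0.0112 or 0.0195), and Tsc22d3 (adjusted p = 0.0551), Sgk1 (0.732) and Tat (0.321) did not pass this exact test. The median gene had a ratio of 0.778 to 0.893 in the 8 libraries. Set against the median gene of each library, Ddit4 (-2.16, log2), Klf9 (-1.08), Errfi1 (-0.54), Sik1 (-1.08) and Nr3c1 (-1.04) were lower and passed (exact sign-flip test, adjusted p = 0.0174). Fkbp5 (-0.195) and Zbtb16 (-0.463) did not pass against it (exact sign-flip test, adjusted p = 0.119 and 0.0781).

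The largest strand differences were in Ddit4, at a mean ratio of 0.187, but its depth was low, with 0 to 9 TS reads and 3 to 39 NTS reads per library. In the kidney 13.3% (95% Wilson interval 6.26% to 26.2%) and 16.7% (7.87% to 31.9%) of its reads were on the TS. In liver replicates 1 and 2 it had 0 of 10 reads on the TS, which allows a share of up to 30%, and in lung replicate 1 it had 0 of 26, which allows up to 11.5%.

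Sik1 and Klf9 both had a mean ratio of 0.394. Klf9 had 3.88 and 6.09 TS against 15.6 and 15.9 NTS CPM per 1000 GG in the kidney, and 6.11 and 2.31 against 9.53 and 13.4 in the lung. Sik1 had 8.78 and 8.99 TS against 18.8 and 18.4 NTS in the kidney, and 2.00 and 3.73 against 7.72 and 8.39 in the liver. On both genes the TS was the lower strand in each library shown.

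Nr3c1 had a mean ratio of 0.404, although its RNA did not pass in any comparison. Its TS values were 2.20 to 4.73 and its NTS values 6.86 to 8.47 CPM per 1000 GG, with no overlap over the 8 libraries. Errfi1 had a ratio of 0.572, Zbtb16 of 0.604 and Fkbp5 of 0.727. Sgk1 had a ratio of 0.979, with TS shares of 45.1% to 55.7% of its reads, and relative to the median gene it was higher by 0.23 on the log2 scale (exact sign-flip test, adjusted p = 0.0312).

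Tat had TS values of 6.43 and 6.84 CPM per 1000 GG in the liver, where it is transcribed, and 8.39 to 17.4 in the other organs. Its NTS values were 11.3 and 6.22 in the liver and 6.54 to 14.5 elsewhere. The TS groups were separate, but the difference between organs did not pass (F test, edgeR adjusted p = 0.112), at 9 to 54 TS reads per library.

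**Figure D5:**
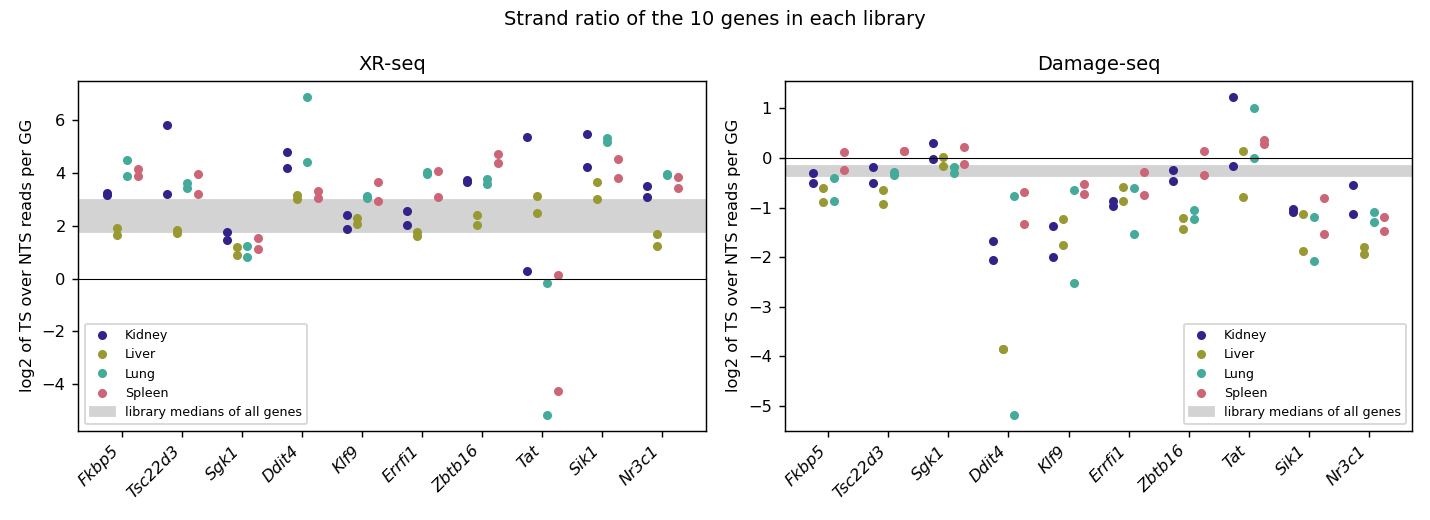
Log2 ratio of reads per GG, TS over NTS, for each gene in each of 8 libraries, with XR-seq on the left and Damage-seq on the right, coloured by organ. The grey band spans the library medians of all genes and the line at 0 marks equal strands. In XR-seq 9 genes lie above 0 in every library, and in Damage-seq 5 lie below 0 in every library, with Sgk1 near 0.

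Relative damage also differed between organs for some genes. On the TS 3 of the 9 members tested differed (Fkbp5, Zbtb16 and Sik1), as did 31.9% of 19759 genes, and Ddit4 had too few reads to be tested. On the NTS 4 of 10 differed (Fkbp5, Klf9, Errfi1 and Sik1), as did 18.0% of 20262 genes. In all 4 the kidney had the highest NTS damage relative to the other genes of its libraries. The kidney lay above the other organs by 0.57 ± 0.11 for Fkbp5, 0.75 ± 0.17 for Klf9, 0.88 ± 0.24 for Errfi1 and 0.87 ± 0.20 for Sik1 (log2, contrasts in edgeR with adjusted p under 0.05). Zbtb16 TS damage was high in kidney (10.7 and 9.49 CPM per 1000 GG) and spleen (10.1 and 9.67) and low in liver (4.12 and 4.23) and lung (5.60 and 5.80), with the groups apart (F test over organs, edgeR adjusted p = 6.16e-12). Fewer members were called on the NTS with either kidney replicate left out, and fewer genes in the whole table too. Each Damage-seq library was counted as a replicate, although the pairs differed little more than sampling noise would give.

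Read across the assays, the 6 genes whose RNA rose fell on both sides of the Damage-seq test. Ddit4, Klf9, Errfi1 and Sik1 had more repair on the TS in all 8 XR-seq libraries and fewer adducts on the TS in all 8 Damage-seq libraries, as did Nr3c1, whose RNA did not pass. Tsc22d3 and Sgk1 had the TS excess in XR-seq, and their strands in Damage-seq did not differ past the test. Their counts cover annotated spans of 61.1 kb and 118 kb, and RefSeq places starts of both well inside the span. For Tsc22d3 the 250 bases before such a start lie at chrX:140542669-140542918, near the gene end at 140539528. The part of this in their strand values was not tested. The difference between these genes was not itself tested. RNA-seq was taken from separate libraries and has controls, whereas XR-seq and Damage-seq have none, so no effect of cisplatin on repair can be read from the latter.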

How the data were processed

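RNA-seq measured 4 organs of control and cisplatin-treated mice, and XR-seq and Damage-seq the cisplatin-treated ones. Per the labels, BWA, STAR, cutadapt, Picard and featureCounts were used on mm10, with versions not given in the sources used here. The files deposited by the authors hold unnormalized read counts for each gene, with TS and NTS apart in XR-seq and Damage-seq. 1 line of each of the 16 XR-seq and Damage-seq files held neither identifier nor value and was dropped.

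Changes were tested with edgeR 4.0.16 (R 4.3.3, limma 3.58.1; TMM, filterByExpr, quasi-likelihood fit against a log2 fold change of 0.4, Benjamini-Hochberg adjusted p under 0.05 over all genes). RNA-seq replicate pairs with a dispersion index (chi-square of counts over degrees of freedom) of 3 or below were summed. The lone control sample this left in lung and spleen is assumed to vary like the treated pair. XR-seq and Damage-seq pairs were not summed, although the index of the Damage-seq pairs was 1.43 to 3.11. The adjusted p of Damage-seq may thus not measure the spread between animals. In the fit by organ for XR-seq and Damage-seq, organ was tested by F test. Strand ratios used a pseudocount of 0.5 reads and exact two-sided sign flips over 8 libraries. DESeq2 1.42.0, other scaling, no filter and left-out libraries were alternatives. The scripts were tested on simulated data. Sequence work used Python 3.11.15 and RefSeq windows on GRCm38.

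The members and gene lists were chosen with earlier results of these data known. All 10 members are named, with at most the 2 largest and 2 smallest changes that passed in each other list and organ, the 5 genes most correlated with Fkbp5, and Cdkn1a. At these depths, single genes in Damage-seq have few reads. 1 listed gene is not reported here.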

Additional observations from a re-analysis of the deposited data

How the results depend on the processing

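The counts of members called by edgeR moved with the settings, and the cause was not tested. In the kidney the 2 members became 5 without the filter on low counts, 5 when tested against no change, 1 in the fit with 8 groups and 0 to 7 when 1 library was left out. These kidney counts hold Tat as lower without the filter and in each leave-one-out count above 0, as does the block below, and other calls are higher. In the lung the 3 became 5 with DESeq2, 7 without the filter, 6 against no change, 0 in the fit with 8 groups, 7 with each library as a replicate and 0 to 2 when 1 was left out, where leaving out a cisplatin library used the fit with 8 groups. The 0 members of the spleen became 3 with DESeq2, 1 without the filter and 1 with each library as a replicate, and the 0 of the liver 0 to 1 when 1 was left out (Klf9, without cisplatin replicate 1). With the replicate block the counts were 7, 2, 8 and 5 for kidney, liver, lung and spleen. The labels share only the numbers, 2 per organ, and the replicate differences of both arms correlated across genes at 0.306, 0.191, 0.0573 and 0.279 in the same order. The 6 of the mean became 2 without the kidney, 2 without the lung and 3 without the spleen. For XR-seq NTS by organ the 5 became 8 without the filter, 8 with DESeq2 and 3 to 8 when 1 library was left out, and for Damage-seq NTS the 4 became 2 with DESeq2 and 1 to 4. Over all genes the XR-seq NTS count went from 5104 to 6035 without the filter and to 6811 with DESeq2. The Damage-seq NTS count over all genes went from 3648 to 1347 with DESeq2. Counts, in either direction, for XR-seq TS, Damage-seq TS, both strand ratios, the interaction and the 4 genes above their controls in each organ stayed within 1.5 times. The last was still 4 with CPM from library totals (3.59% of all genes) and without the spleen (5.75%), 2 settings chosen after seeing the data. Over all genes the count called went from 782 to between 123 and 3182 in kidney, from 0 to as many as 1840 in liver, from 381 to between 0 and 1914 in lung, from 32 to as many as 172 in spleen, and from 805 to between 262 and 2134 in the mean. The sign turned for log2 fold changes that did not pass, with leave-one-out ranges of -0.084 to 1.15 for Fkbp5 in kidney, -0.069 to 0.96 for Fkbp5, -0.69 to 1.89 for Zbtb16 and -0.047 to 0.31 for Sik1 in liver, -0.32 to 0.10 for Zbtb16 in lung, and -0.043 to 4.02 for Tat and -0.18 to 0.032 for Nr3c1 in spleen. Tat in the mean was 1.10 without the kidney. Relative to the library median, the XR-seq strand ratio was -1.12 for Sgk1 and -2.15 for Tat, and the Damage-seq ratio 0.23 for Sgk1. The counts that passed there, 7 in XR-seq and 6 in Damage-seq, include Sgk1 with this turned sign. Klf9 and Errfi1 in XR-seq, and Fkbp5 and Zbtb16 in Damage-seq, no longer passed there. Among alternatives for single members, 866 values kept direction and side of the threshold, 68 newly passed, 51 no longer passed and 13 turned sign.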
